A study of Mus musculus with 6 samples.

Results

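The genes described here were 9 surface protein genes of a pair of mouse clusters. The Ly6 genes Ly6a, Ly6c1, Ly6c2, Ly6e and Ly6i lie on chromosome 15, and the Ms4a genes Ms4a4b, Ms4a4c, Ms4a4d and Ms4a6b lie on chromosome 19. They were taken by name as members of these clusters that are known in T cells, and the rule itself uses no measured value, although earlier results of these data were known when they were chosen. They were found by Ensembl identifier among the 41388 genes of the expression table. The samples were 3 WT and 3 Irf1-/- cultures on the C57BL/6 background, from mice that the study's methods give as 8 to 12 weeks old. CD4+ T cells from spleen and lymph nodes, called naive in the methods, were kept for 2 days under Th9 conditions. By the study's culture methods these were activation through CD3 and CD28 with IL-2, IL-4, TGF-β and an antibody against mouse IFN-γ. All 6 cultures also received IFN-γ at 5 ng per ml, which the culture methods give as rat IFN-γ. The WT cells were thus a stimulated control, and no culture without added IFN-γ was compared. The deletion is carried in the germ line. The study describes the samples of each genotype as biologically independent, and whether each culture came from 1 animal or from pooled animals was not given in the sources used here.

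Ly6 genes encode small surface proteins with the disulphide-bonded Ly6/uPAR fold, and most of them are held in the outer leaflet of the membrane by a glycosylphosphatidylinositol (GPI) anchor. In T cells they are used as markers of activation and memory, and several of them are known to respond to interferon. Ms4a genes encode multi-pass membrane proteins related to CD20, and members of the group expressed in T cells have been placed in complexes with signalling receptors. IRF1 is a transcription factor that IFN-γ induces, and it binds interferon response elements of many of the genes that IFN-γ switches on. The comparison asks how the RNA of these genes differed between Th9 cells with and without IRF1 when IFN-γ was present.

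RNA of 4 of the 9 genes fell in Irf1-/- Th9 cells, where 12.4% of all genes tested fell. These were Ly6e, Ly6a and Ly6c1 on chromosome 15 and Ms4a4b on chromosome 19, and their mean in Irf1-/- cells was between 60.1% and 76.6% of the WT mean. Ms4a6b stood at 79.9% of the WT mean and did not pass the test. The remaining 4 genes had too few reads to be tested, and among them Ms4a4d had no read in any library.

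Members of each cluster are close copies of one another, which decides how well short reads can assign RNA to them. The first 150 coding bases of the closest pairs are shown for this reason, from the GENCODE M21 transcripts on GRCm38, with the bases that differ within a pair in capitals. Ly6c1 and Ly6c2, which encode separate proteins that share the Ly6C antigen, differed at 9 of 393 coding positions, and 6 of these lie in the bases shown. Beyond them the sequence runs on without a difference for up to 188 bases.
Ly6c1: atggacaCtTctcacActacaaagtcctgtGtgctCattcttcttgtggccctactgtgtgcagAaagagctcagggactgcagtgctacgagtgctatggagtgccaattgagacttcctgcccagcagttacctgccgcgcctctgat
Ly6c2: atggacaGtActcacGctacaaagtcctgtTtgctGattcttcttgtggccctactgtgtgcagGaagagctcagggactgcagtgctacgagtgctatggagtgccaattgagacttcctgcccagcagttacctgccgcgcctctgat

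Ly6a and Ly6i differed at 55 of 402 coding positions, with 7 differences in the bases shown.
Ly6a: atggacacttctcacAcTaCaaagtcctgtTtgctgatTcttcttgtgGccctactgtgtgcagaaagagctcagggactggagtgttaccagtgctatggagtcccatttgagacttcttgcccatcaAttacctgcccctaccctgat
Ly6i: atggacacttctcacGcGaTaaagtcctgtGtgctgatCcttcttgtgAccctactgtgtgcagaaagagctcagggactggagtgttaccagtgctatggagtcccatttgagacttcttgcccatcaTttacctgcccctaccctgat

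Ms4a4b and Ms4a4c differed at 56 of 678 coding positions, with 11 of the differences in the bases shown.
Ms4a4b: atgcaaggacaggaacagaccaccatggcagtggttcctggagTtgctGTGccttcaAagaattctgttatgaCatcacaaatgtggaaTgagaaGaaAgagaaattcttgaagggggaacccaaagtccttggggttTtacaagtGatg
Ms4a4c: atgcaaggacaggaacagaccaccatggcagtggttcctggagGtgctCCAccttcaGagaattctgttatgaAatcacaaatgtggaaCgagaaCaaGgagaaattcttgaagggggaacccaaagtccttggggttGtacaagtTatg

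Ly6e was the member least like its neighbours, with 49.3% identity to Ly6a over the aligned coding sequence. Ms4a4b and Ms4a6b were as far apart, at 47.0%. The identity was 81.8% between Ly6a and Ly6c1 and 83.2% between Ms4a4b and Ms4a4d.

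A read starting at a given base of a gene's main transcript cannot be assigned to that gene alone when the same 50 bases also occur in a transcript of another gene. This was so for 36.7% of the start positions of Ly6c1 and 33.0% of those of Ly6c2, and Ly6c2 itself accounted for 31.7% of the positions of Ly6c1. It was so for 8.91% of the positions of Ms4a6b, 8.48% of Ms4a4c, 8.05% of Ly6a, 4.97% of Ly6i, 4.19% of Ms4a4b and 0.546% of Ms4a4d. None of the 2232 positions of Ly6e was shared. The level of Ly6e thus rests on sequence found in no other gene, while that of Ly6c1 rests on such sequence for 63.3% of its length. With the 59 bases that the labels give as the read length, the share was 30.7% for Ly6c1 and 27.5% for Ly6c2. The sources used here do not say what was done with a read that matches more than 1 gene, so that the values of Ly6c1, Ly6c2 and the other close copies are uncertain to this extent.

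**Figure D1:**
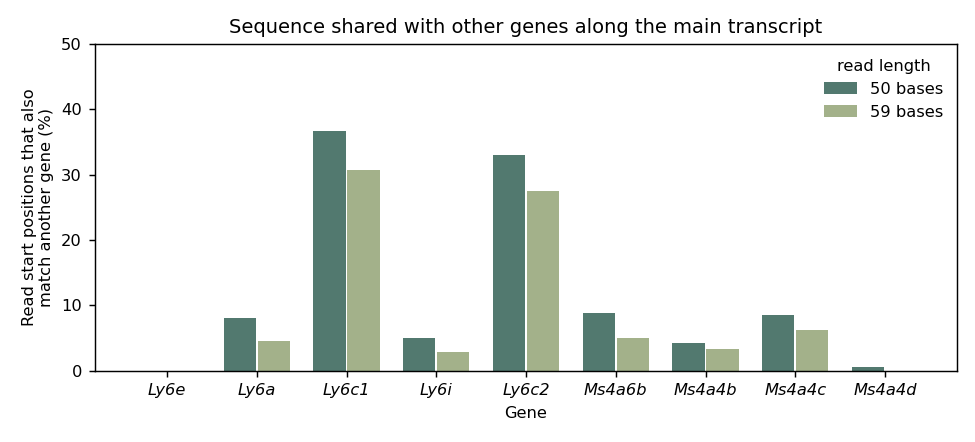
Share of read start positions along each gene's main transcript (vertical axis, percent) whose following 50 or 59 bases also occur in a transcript of another gene, for the 9 genes. Ly6c1 and Ly6c2 stand highest, at 36.7% and 33.0% for 50 bases, and Ly6e has none.

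The values are normalized counts: for each gene, its reads after scaling by the library's size factor. The libraries held 5639788 to 13348230 reads on genes, and replicate 3 of each genotype was the larger. Markers of CD4+ T cells were high throughout, with a summed normalized count from 10413 to 11033 in WT and from 9638 to 10071 in Irf1-/- libraries, and 2 of the 6, Cd3e and Trac, were called lower in Irf1-/- cells, where 12.4% of all genes tested were. The count was 2 to 3 with 1 library left out. Markers of B, NK and CD8 T cells were low, and those of myeloid cells differed by gene and library. The B cell markers summed to 18.7 to 26.4 in WT and 21.7 to 37.4 in Irf1-/- libraries with Pax5 at 0, and the NK cell markers to at most 5.97 with 3 of 4 at 0. The sums of the CD8 T cell markers were 32.4 to 41.2 and 20.3 to 30.7. The 8 myeloid markers summed to 276, 392 and 312 in the WT libraries, by replicate, and to 509.8, 1017 and 327 in the Irf1-/- libraries. Cst3 alone was at 225, 240 and 259 in WT and at 314, 309 and 288 in Irf1-/- libraries. It was called higher in Irf1-/- cells. Lyz2 was at 11.2, 96.2 and 24.0 in WT and at 134, 559 and 7.03 in Irf1-/- libraries. Csf1r, Adgre1, Tyrobp and Fcer1g were too low to be tested. Of the 8 myeloid markers 3 were called higher without Irf1-/- replicate 3, and 0 in DESeq2 or without any 1 of replicates 1 and 2 of either genotype. Irf1 itself kept 1476 to 1780 normalized counts in Irf1-/- libraries against 2660 to 2968 in WT. Reads of the Y-linked gene Ddx3y were found in WT replicates 1 and 2, at 849 and 939, and at or under 4.16 in the other 4 libraries, so that the sex of the cells and the genotype are partly confounded. The part of the sex and of other cells in the results below is not known beyond the values given beside them.

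Ly6e, the member with the most reads, encodes a GPI-anchored protein known as an interferon-induced gene and as a regulator of viral entry. It lies from 74955051 to 74959905 on the + strand of chromosome 15 (GRCm38, ENSMUSG00000022587). Its normalized counts were 2528, 2336 and 2895 in the WT libraries (replicates 1 to 3) and 1575, 1867 and 1667 in the Irf1-/- libraries. Every WT library lay above every Irf1-/- library. The mean fell from 2586 ± 284 (SD, n = 3) to 1703 ± 149 (SD, n = 3), a log2 fold change of -0.60 (standard error 0.0850, 95% interval -0.79 to -0.41, Benjamini-Hochberg adjusted p = 7.98e-04 by limma over all genes). Log2 fold changes are those of the normalized count plus 1, Irf1-/- minus WT. Ly6e kept its call in all 18 other settings of the analysis, with a log2 fold change from -0.67 to -0.52 in the 16 that were not added after seeing the data.

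Ly6a encodes the stem cell antigen Sca-1, a GPI-anchored protein that marks haematopoietic stem cells and rises on activated T cells and in response to interferon. It lies from 74994877 to 74998031 on the - strand (ENSMUSG00000075602). Its normalized counts were 2440, 2331 and 2105 in the WT libraries and 1888, 1894 and 1488 in the Irf1-/- libraries, in the order of the replicates. The groups did not overlap, and replicate 3 was the lowest library of either genotype. The mean fell from 2292 ± 171 (SD, n = 3) to 1757 ± 232 (SD, n = 3), with a log2 fold change of -0.39 (standard error 0.0933, 95% interval -0.60 to -0.18, adjusted p = 0.0128 from limma). The call was lost without WT replicate 1 (log2 fold change -0.34, adjusted p = 0.0608 from limma) and without WT replicate 2 (-0.38, adjusted p = 0.0553). It was also lost in limma without the mean-variance trend (adjusted p = 0.0768). Over all 16 alternatives other than those added later the adjusted p ran from 4.41e-06 to 0.0768. WT replicates 1 and 2 are the libraries with Ddx3y at 849 and 939. A covariate for the log2 level of Ddx3y, which was added later, gave -0.27 (limma, adjusted p = 0.0893).

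Ly6c1 encodes one of the proteins detected as Ly6C, an antigen that marks monocytes and subsets of memory T cells. It lies from 75044018 to 75048830 on the - strand (ENSMUSG00000079018). The WT libraries held 61.2, 63.7 and 54.7 normalized counts and the Irf1-/- libraries 44.2, 38.8 and 24.9. The groups were separate, and Irf1-/- replicate 3 was the lowest. The mean fell from 59.9 ± 4.64 (SD, n = 3) to 36.0 ± 9.94 (SD, n = 3), a log2 fold change of -0.75 (standard error 0.223, 95% interval -1.25 to -0.26, adjusted p = 0.0325 from limma). This was the least firm of the Ly6 calls. It was lost in 6 of the 15 such alternatives that tested the gene, among them the fits without WT replicate 1, WT replicate 2, Irf1-/- replicate 2 and Irf1-/- replicate 3, with adjusted p from limma of 0.0963, 0.108, 0.0616 and 0.0748 in this order, within a range of 0.00494 to 0.108. With the Ddx3y covariate it was -0.62 (limma, adjusted p = 0.164). The myeloid marker sums of the same libraries, given above, were 276, 392 and 312 in WT and 509.8, 1017 and 327 in Irf1-/- cells. They include Cst3, at 225 to 259 in WT and 288 to 314 in Irf1-/- libraries. The part of myeloid cells in the Ly6c1 level was not tested.

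Ly6i and Ly6c2 had too few reads for the test, which needed a mean of 10 or more normalized counts. Ly6i, a close relative of Ly6a (74979534 to 74983430 on the - strand, ENSMUSG00000022586), had 12.5, 8.4 and 6.1 normalized counts in WT and 7.2, 4.2 and 4.5 in Irf1-/- libraries, and the groups overlapped. Over the 3 libraries of a group this was 27 reads against 16, and the depth-adjusted ratio of Irf1-/- to WT was 0.618 with an exact 95% interval of 0.311 to 1.19, which covers counting error only. Ly6c2, which encodes the other Ly6C protein (75108158 to 75111970 on the - strand, ENSMUSG00000022584), had 2.5, 2.4 and 1.2 normalized counts in WT, from 2 reads in each library, and 6.0, 4.2 and 3.8 in Irf1-/- libraries. Its values lay above those of WT in all 3 Irf1-/- libraries, on the other side from Ly6c1. With 6 reads against 14 the ratio was 2.44 with an exact 95% interval of 0.879 to 7.73, so that a difference was not detectable at this depth.

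**Figure D2:**
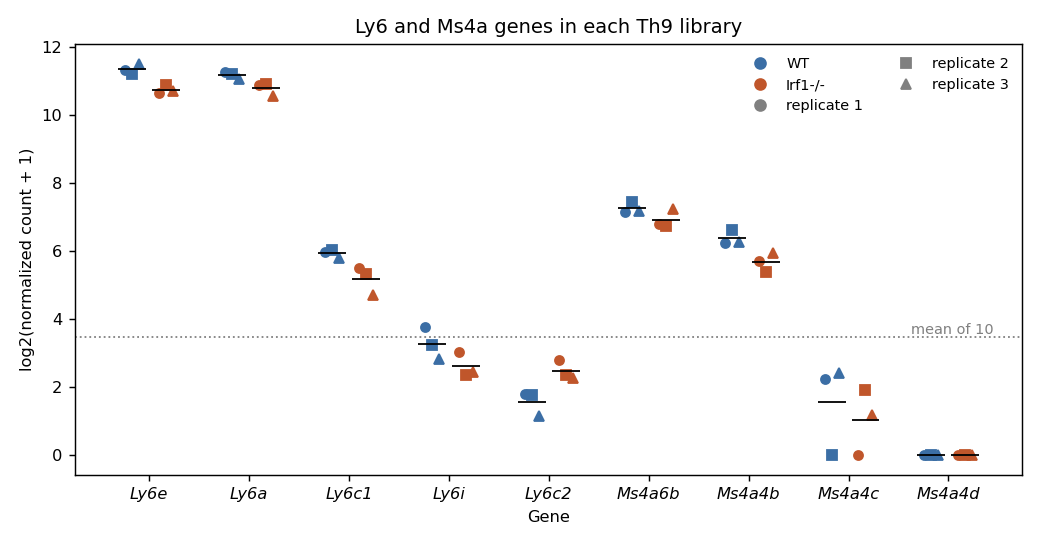
The log2 of the normalized count plus 1 (vertical axis) of each of the 9 genes in the 3 WT and 3 Irf1-/- libraries, with the group mean as a bar and the mean of 10 required for testing as a dotted line. Ly6e and Ly6a lie far above the others, the groups are separate for Ly6e, Ly6a, Ly6c1 and Ms4a4b, with WT higher, and for Ly6c2, with Irf1-/- higher, and 4 genes lie below the dotted line.

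On chromosome 19, Ms4a4b encodes a surface protein of T cells known as a modulator of their activation and proliferation. It lies from 11443553 to 11467055 on the + strand (ENSMUSG00000056290). Its normalized counts were 74.9, 96.2 and 75.6 in WT and 51.3, 40.2 and 60.1 in Irf1-/- libraries. No Irf1-/- library reached the lowest WT library. The mean fell from 82.2 ± 12.1 (SD, n = 3) to 50.5 ± 9.95 (SD, n = 3), a log2 fold change of -0.70 (standard error 0.186, 95% interval -1.11 to -0.29, adjusted p = 0.0208 from limma). Without WT replicate 2, Irf1-/- replicate 1 or Irf1-/- replicate 2 the call was lost, with adjusted p from limma of 0.0932, 0.0525 and 0.0779. The log2 fold changes there were -0.58, -0.72 and -0.55. The call was also lost in DESeq2 (log2 fold change -0.67, adjusted p = 0.0659 from DESeq2). The adjusted p ranged from 0.00479 to 0.0932 over those 16 alternatives. With the Ddx3y covariate the difference was -0.67 (limma, adjusted p = 0.0826).

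Ms4a6b, which encodes a further Ms4a protein of T cells, lies from 11516512 to 11531256 on the + strand (ENSMUSG00000024677). It had 141, 173.1 and 142.0 normalized counts in WT and 108.6, 105.4 and 150.2 in Irf1-/- libraries. Irf1-/- replicates 1 and 2 lay below the WT libraries, while replicate 3 lay among them. The means were 152 ± 18.3 (SD, n = 3) and 121 ± 25.0 (SD, n = 3), and the log2 fold change of -0.33 (standard error 0.153, 95% interval -0.67 to 0.0048) did not pass the test (adjusted p = 0.142 from limma). Irf1-/- replicate 3 decided this result. Without it the value was -0.50 and the gene was called (adjusted p = 0.0232 from limma, in a range of 0.0232 to 0.386 over those 16 alternatives). The start of Ms4a6b overlaps Gm19261, annotated on the other strand, and whether the counting used strand was not given.

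Ms4a4c, the close copy of Ms4a4b (11404770 to 11427246 on the + strand, ENSMUSG00000024675), had 3.7, 0 and 4.3 normalized counts in WT and 0, 2.8 and 1.3 in Irf1-/- libraries, or 10 reads against 4. The ratio of 0.417 had an exact 95% interval of 0.0956 to 1.45. Ms4a4d (11536801 to 11558467 on the + strand, ENSMUSG00000024678) had 0 reads in all 6 libraries, which allows a normalized count of up to 1.84 to 4.16, the value of 3 reads in the largest and the smallest library.

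Of the 5 genes tested, limma called 4 lower and 0 higher in Irf1-/- cells, edgeR likewise 4 and 0 and DESeq2 2 and 0, and their median log2 fold change was -0.60. Among all 11379 genes tested 12.4% were called lower and 11.4% higher, 23.7% in either direction, with a median log2 fold change of -0.0037. By cluster, 3 of 3 Ly6 genes and 1 of 2 Ms4a genes tested were called. In the same 4 genes the libraries of the genotypes did not overlap, with WT higher, which was so for 20.9% of all genes tested and, in either direction, for 40.5%. The number of genes called lower was 2 without WT replicate 1, 1 without WT replicate 2 and 2 without Irf1-/- replicate 2. With bulk RNA, fewer cells carrying a transcript and less RNA per cell cannot be told apart.

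**Figure D3:**
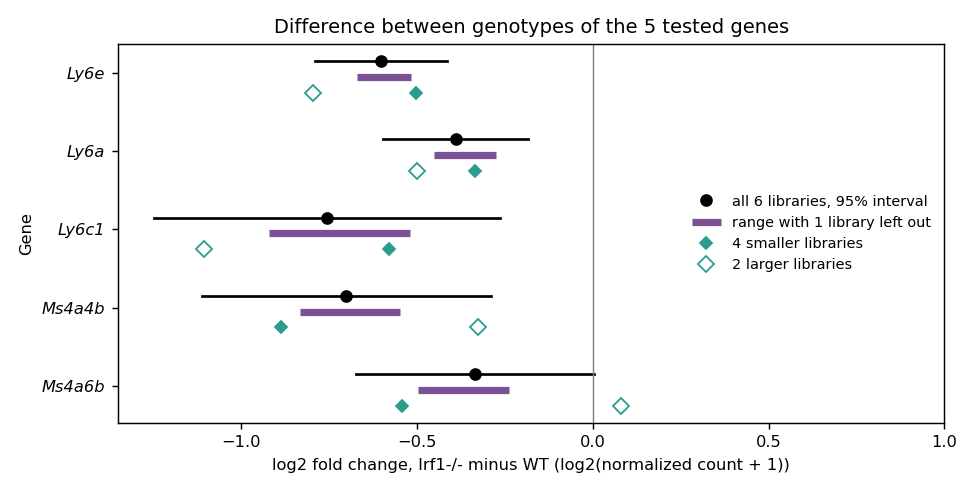
Log2 fold change (horizontal axis, Irf1-/- minus WT) of the 5 tested genes. Black points and lines give the value of all 6 libraries with its 95% interval, purple bars the range when 1 library is left out, and diamonds the value in the 4 smaller and in the 2 larger libraries. All values lie below 0 apart from Ms4a6b in the 2 larger libraries, at 0.08, and the interval of Ms4a6b reaches just past 0.

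Levels between genes were compared as normalized counts per kilobase of the main transcript. On this scale Ly6a stood highest, at 2799 in WT and 2145 in Irf1-/- cells, followed by Ly6e at 1134 and 747. Both were far above the rest, at the percentile 99.0 and 94.4 of the genes tested when ranked per kilobase of exon. Ms4a6b and Ly6c1 followed, at 90.1 and 70.9 in WT and 72.0 and 42.6 in Irf1-/- cells, and then Ms4a4b at 17.3 and 10.6. These 5 genes kept the same order in each of the 6 libraries on this scale. Per kilobase of read start positions found in no other gene, Ly6c1 lay above Ms4a6b in WT cells, at 119 against 102, and below it in Irf1-/- cells, at 71.5 against 81.4, so that the order of these neighbours depends on the scale. Ly6i stood at 7.80 and 4.56, Ly6c2 at 2.49 and 5.66 and Ms4a4c at 1.56 and 0.784, values that rest on a few reads and were not tested against each other. In WT cells the order had Ly6i above Ly6c2, and in Irf1-/- cells Ly6c2 above Ly6i, with counts of 16 and 14 reads.

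Summed over the 5 genes, the Ly6 cluster gave 5044, 4741 and 5062 normalized counts in WT libraries and 3520, 3808 and 3189 in Irf1-/- libraries. Ly6e and Ly6a made up nearly all of it, and the share of Ly6e ranged from 49.3% to 57.2% in WT and from 44.7% to 52.3% in Irf1-/- libraries. The 4 Ms4a genes summed to 220, 269 and 222 in WT and to 160, 148 and 212 in Irf1-/- libraries. Ms4a6b made up 64.0% to 64.3% of that sum in WT and 67.9% to 71.0% in Irf1-/- libraries, a larger share in each Irf1-/- library.

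Whether neighbours in a cluster moved by unequal amounts was tested on their ratio within each library, by an exact two-sided permutation test whose smallest possible p is 0.1 with 3 against 3. Of 6 pairs, 2 had both genes at the mean of 10. The ratio of Ms4a4b to Ms4a6b was 0.534, 0.558 and 0.536 in WT and 0.477, 0.387 and 0.404 in Irf1-/- libraries, with no overlap and little spread in WT. The log2 ratio differed by -0.37 (exact p = 0.1, the smallest this test can give, and adjusted p = 0.2 over the pair of tests). The ratio of Ly6a to Ly6e was 0.965, 0.998 and 0.727 in WT and 1.20, 1.01 and 0.893 in Irf1-/- libraries, where the groups overlapped. That log2 ratio differed by 0.21 (exact p = 0.4, adjusted p = 0.4).

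The libraries fell into 4 smaller ones, replicates 1 and 2 of each genotype, and 2 larger ones, replicate 3 of each. The Ly6 genes had the larger difference in the larger pair and the Ms4a genes in the smaller libraries. The log2 fold change was -0.50 in the 4 smaller and -0.80 in the 2 larger libraries for Ly6e, -0.33 and -0.50 for Ly6a, and -0.58 and -1.10 for Ly6c1. For Ms4a4b it was -0.89 and -0.33, and for Ms4a6b -0.54 and 0.08. The 2 larger libraries are 1 against 1 and give no test. In the 4 smaller libraries the sex and the genotype cannot be told apart. There Ddx3y was at 849 and 939 in the WT libraries and at 0 and 4.16 in the Irf1-/- libraries. It was at 0 in both libraries of the larger pair.

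Irf1-/- replicate 3 was also where the clusters parted. Of the 3 Irf1-/- libraries it had the highest value for 5 of 5 tested genes between Ms4a4b and Ms4a6b on chromosome 19, which was so for 38.9% of all genes tested. In percent of the WT mean, it stood at 73.1% for Ms4a4b, 105% for Ms4a6c, 71.8% for BE692007, 132% for Gm8369 and 98.8% for Ms4a6b. For Ly6a and Ly6c1 it was the lowest of the 3, at 64.9% and 41.6%, and for Ly6e it lay between the others at 64.5%. The lowest value fell to this library in 36.4% of all genes tested. The myeloid marker sum of this library was 327, with Cst3 at 288, against 509.8 and 1017 in the other Irf1-/- libraries, with Cst3 at 314 and 309. These 8 genes were looked at in this library after their values were seen, and what sets the library apart was not tested. Of these genes BE692007 overlaps Ms4a6c on the other strand. Ms4a6b shares 6.1% of its start positions for 50 bases with Ms4a6c and 5.0% with BE692007. The values of these genes may thus rest in part on the same reads.

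**Figure D4:**
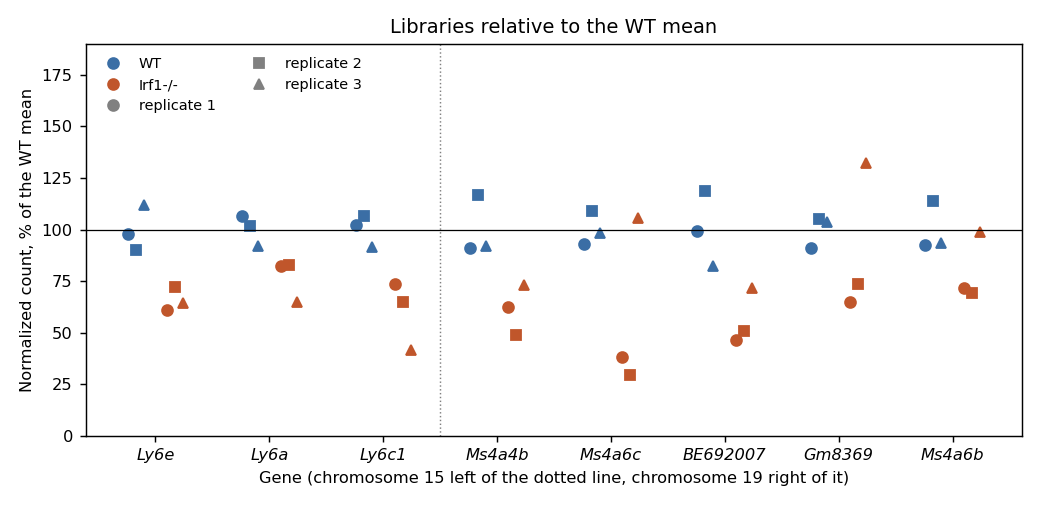
Normalized count of each library in percent of the gene's WT mean (vertical axis) for 3 Ly6 genes on chromosome 15 and 5 genes of the Ms4a cluster on chromosome 19, with the replicate shown by the shape of the point. Irf1-/- replicate 3 (triangle) is the highest Irf1-/- library for every chromosome 19 gene, at 132% for Gm8369, and the lowest for Ly6a and Ly6c1.

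Across the 6 libraries the log2 levels of Ly6a and Ly6c1 ran together with a Pearson r of 0.978, and those of Ms4a4b and Ms4a6b with 0.906. Ly6e followed Ly6a and Ly6c1 less closely, with 0.738 and 0.734. Between the clusters the values ranged from 0.255 for Ly6a and Ms4a6b to 0.679 for Ly6e and Ms4a4b. These describe 6 points that share genotype, library and depth. Among the 8222 other genes with a mean of at least 100, the most like Ly6a were Tango6 (r = 0.997), Pfas (0.996) and Nop16 (0.996), and the most like Ly6e were Haus3 (0.996), Sh3bp2 (0.996) and Eif4e2 (0.995). For Ms4a4b they were Tbc1d13 (0.990), Arid1b (0.990) and 1810030O07Rik (0.985). For Ms4a6b they were Zfp113 (0.986), Ralgapa1 (0.982) and Cd55 (0.970), which encodes a GPI-anchored inhibitor of complement. The genes named are those with the highest of 8222 values over 6 points, and their likeness was not tested. Their log2 fold changes ran from -0.60 for Cd55 to -0.08 for Tbc1d13.

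Within 300 kb of the Ly6 genes 3 other genes were tested, and 1 was called lower, where 12.4% of all genes tested were. Them6, which lies beyond Ly6e, fell from a mean of 368 to 231 normalized counts (log2 fold change -0.67, adjusted p = 0.00158 from limma). Jrk and Lynx1, the latter itself a gene of the Ly6/uPAR family, had -0.15 and -0.40 and were not called. Around the Ms4a genes 5 others were tested, and 1 was called lower, a share of few genes that lies near that of all genes. It was BE692007, with a mean of 51.6 in WT and 29.1 in Irf1-/- cells (log2 fold change -0.82, adjusted p = 0.0262 from limma). Without any 1 of replicates 1 and 2 of either genotype, and in DESeq2, 0 of the 5 were called, and without Irf1-/- replicate 3 the count was 3. BE692007 overlaps Ms4a6c on the other strand, so that their reads cannot be told apart if strand was not used. Ms4a6c had 17.5, 20.4 and 18.4 normalized counts in WT and 7.16, 5.55 and 19.8 in Irf1-/- libraries and was not called (log2 fold change -0.93, adjusted p = 0.139 from limma). Gm8369, Mrpl16 and Stx3 were not called either, with log2 fold changes of -0.21, -0.01 and -0.08.

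**Figure D5:**
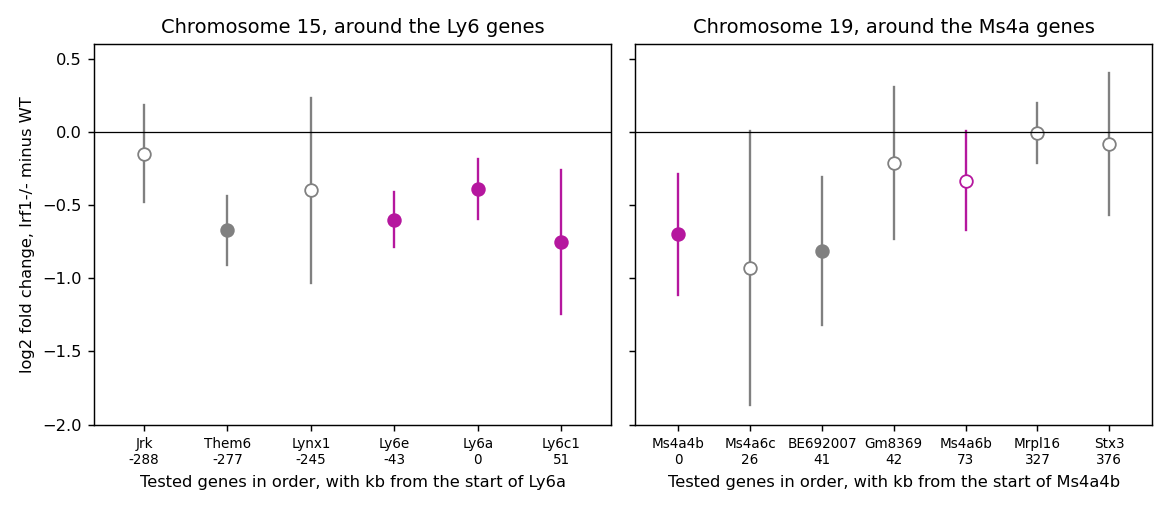
Log2 fold change with its 95% interval (vertical axis) of the tested genes around each cluster, in order along the chromosome with their distance in kb from the start of Ly6a or Ms4a4b. Members are purple and other genes grey, and filled points have an adjusted p below 0.05 in limma. Them6 at -0.67 and BE692007 at -0.82 are the filled grey points.

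Of 35 other genes of the Ly6/uPAR family, 33 were in the table, 16 were at 0 in every library and 3 were tested, of which none was called by limma. The nearest was Plaur, the urokinase receptor gene, with 125, 86.6 and 136 normalized counts in WT and 76.4, 91.5 and 54.3 in Irf1-/- libraries (log2 fold change -0.64, adjusted p = 0.0538 from limma). Its groups overlapped. Lypd6b and Lynx1 had -0.71 and -0.40. At an unadjusted p below 0.05 the limma count was 2, and edgeR and DESeq2 each called 1 of the 3 lower, namely Plaur. In limma it was also called without WT replicate 2, without Irf1-/- replicate 2, without the filter and with quantile normalization.

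The other 17 genes of the Ms4a family gave 3 tested genes, with 10 at 0, of which 2 were called higher and 0 lower, where 11.4% of all genes tested were called higher. Tmem176a and Tmem176b, which encode related multi-pass proteins and are found on another chromosome, rose together. Tmem176b had 135, 153 and 99.0 normalized counts in WT and 272, 225 and 246 in Irf1-/- libraries (log2 fold change 0.96, adjusted p = 0.00160 from limma). Tmem176a rose from a mean of 78.6 to 136 (log2 fold change 0.81, adjusted p = 0.00664 from limma). For both genes the groups were separate, as for 40.5% of all genes tested. The third gene was Ms4a6c, given above, whose log2 fold change of -0.93 had the opposite sign and did not pass the test.

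Because Ly6 proteins need a GPI anchor, the genes of its synthesis were set beside them. Of 29 genes 27 were tested, with a median log2 fold change of 0.0041, and limma called 0 lower and 2 higher, where 12.4% and 11.4% of all genes tested were called. At an unadjusted p below 0.05 there were 5 and 4. The 2 called genes were Pigp (log2 fold change 0.54) and Dpm3 (0.61), which encode small subunits of enzymes of the pathway. Neither was called without WT replicate 1, WT replicate 2, Irf1-/- replicate 1 or Irf1-/- replicate 2, where the count was 0, and DESeq2 called 0 in both directions while edgeR called 2 higher. The list's summed normalized count was 8534 to 8747 in WT and 8444 to 8723 in Irf1-/- libraries, so that the ranges overlapped.

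Among 15 genes that mark the state of T cells, 9 were called lower, 1 was called higher and 5 were not called, where 12.4% and 11.4% of all genes tested were called lower and higher. The list had a median log2 fold change of -0.43. Klf2, which encodes a transcription factor of resting T cells, fell from a mean of 53.9 to 15.8 normalized counts, a log2 fold change of -1.72. Il7r (-1.33), Ccr7 (-0.43), Tcf7 (-0.26), Bach2 (-0.47) and Cd27 (-0.50), genes of naive and memory cells, fell as well. So did Cd44 (-0.67) and Cd69 (-0.47), which encode proteins that rise on activation. The gene that rose was Il2rb (0.38), a chain of the IL-2 receptor, while Il2ra, Tnfrsf4 and Lef1 had 0.18, 0.07 and -0.02 and were not called. The count of lower genes stayed between 8 and 9 with 1 library left out, while Il2rb lost its call without WT replicate 1, WT replicate 2, Irf1-/- replicate 2 or Irf1-/- replicate 3, which left 0 higher. Without the trend the counts were 6 lower and 0 higher.

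The reference promoters covered Ly6c1, Ly6c2, Ms4a4b, Ms4a4c, Ms4a4d and Ms4a6b. Ly6a, Ly6e and Ly6i were not matched. The transcript starts of that table lie inside the gene as placed above for Ms4a4b, Ms4a4c and Ms4a6b. A further start each of Ly6c1 and Ly6c2 does so too. The 250 bases before each start were searched on both strands for the IRF pair, which is GAAA, any 2 bases and GAAA again. It did not occur in a promoter of the 6 genes, and among all 32851 promoters of this length 2.98% held it. This says only that these letters were not in these windows. The study's own pattern for interferon response elements, AA, any 2 bases and GAAA, is less strict and was not searched for here.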

How the data were processed

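RNA-Seq was done on 3 WT and 3 Irf1-/- Th9 cultures. The authors aligned reads to GRCm38 with STAR (version 2.4.0b), counted them with featureCounts on the genes of Ensembl 76, and deposited the signal as normalized counts, each count divided by a size factor as in DESeq2 (version 1.12.3). Each value was a whole multiple of a library's step within 0.01 reads, and 100% of the non-zero values gave whole reads. The reads per library ranged from 5639788 to 13348230, and 3 reads equalled 1.84 to 4.16 normalized counts, which sets the precision of low genes. The read length is 50 bases in the methods and 59 in the labels. The members and gene lists were chosen with earlier results of these data known.

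The log2 of the normalized count plus 1 was tested with limma 3.58.1 in R 4.3.3 (eBayes with trend) on the 11379 genes whose mean was 10 or more. Benjamini-Hochberg adjusted p-values over all of them were held against 0.05. The unit is not a raw count, hence limma. Alternatives changed the pseudocount to 0.1 or 10, the minimum mean to none or 50, the scaling to quantiles or TMM, dropped the trend, added a replicate block, replaced limma by edgeR 4.0.16 or DESeq2 1.42.0 on recovered reads, or left 1 library out. A Ddx3y covariate and the 4 smaller libraries were added after seeing the data. The genes named are the 9 members, called genes of the lists with up to 3 others by mean, called and other neighbours within 300 kb, and the 3 genes most correlated with a member. Intervals of read ratios are exact binomial (95%) and cover counting error only. The code was tested on simulated data. One gene of the T cell state list, counted but not named, and a second promoter motif are not reported here.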

Additional observations from a re-analysis of the deposited data

How the results depend on the processing

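No log2 fold change of the 5 tested genes changed sign in any of the 18 alternatives. Of the 9 genes 4 were called lower by limma. The number was 2 without the mean-variance trend, 2 in DESeq2, 1 with the Ddx3y covariate and 5 in the 4 smaller libraries, where sex and genotype cannot be told apart, and it ranged from 1 to 4 when 1 library was left out. None was called higher in any alternative. Of all genes 1406 were lower and 1293 higher, against 807 lower without the trend, 824 to 1471 lower and 805 to 1380 higher with 1 library left out. The cause of these changes was not tested, except that leaving out a library leaves fewer samples. Ly6c1 was not tested with a mean of at least 50.

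Whether the replicate numbers of the labels stand for pairing is not settled. The deviations of same-numbered libraries correlated at 0.0922, 0.269 and 0.321, of which the first is under 0.1. Those of unlike numbers ran from -0.306 to 0.0838. Every library thus correlated best with its own number, a hint from the data and not from the design. With a replicate block 2116 genes were lower and 1893 higher, and 4 of the 9 genes were lower. The block also called Plaur lower, and gave 9 lower and 4 higher among the T cell state genes.

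Depth limits Ly6i, Ly6c2 and Ms4a4c to 4 to 27 reads per group and Ms4a4d to an upper bound.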
